A study of Mus musculus with 16 samples.

Results

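The genes described here are the very long expressed genes of mouse ES cells, 392 of the 22375 genes in the deposited count tables. Each has a span, End minus Start in those tables, of at least 200 kb (200000 bases), and its normalized counts average 200 or more across the 8 columns of the normalized table. A normalized count is a gene's read count summed over technical replicates and divided by the library's DESeq size factor. Of 955 genes with such a span, 563 lay under that mean, and of 9499 genes with such a mean, 9107 were shorter. The genes were thus selected on their mean level and span, which are given as a description, with no test. The mean includes the treated libraries, and 362 of the 392 also had a mean of at least 200 over the 4 untreated columns alone.

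ES cells of strain 129/OLA were either wild type (WT, the E14Tg2a line) or Cfp1-/-, and both were grown on gelatin in serum with LIF, a cytokine that maintains pluripotency. Each line was left untreated or given doxorubicin for 6 hours, at 1 μM in the treatment protocol and 1 mM in the treatment label. Ribosomal RNA was removed from total RNA, and strand-specific libraries were sequenced. Each of the 4 groups had 2 biological replicates with 2 technical replicates each, which makes 16 deposited samples. Technical replicates were summed, so n = 2 a group, and since nothing states what separated the biological replicates, p-values measure only the spread between these libraries. Each line is represented by 1 culture line, so effects of Cfp1 loss and other differences between the lines cannot be told apart.

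Genes of this span consist almost entirely of introns, and RNA polymerase II needs hours to cross the longest of them, so that RNA made after a stimulus reaches their ends late. Topoisomerases release the twist that builds up ahead of the polymerase, and doxorubicin is a DNA intercalator that poisons topoisomerase II and activates p53. Cfp1 (gene symbol Cxxc1) binds unmethylated CpG dinucleotides and brings the Set1 methyltransferase complex to promoters, where H3K4 is trimethylated. Many very long genes encode cell adhesion, cytoskeletal, signaling and synaptic proteins, and several lie in common fragile sites, regions that break under replication stress.

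The total counts ran from 14880589 to 29422711 per library. Cxxc1 lay between 807 and 1199 normalized counts in the WT libraries and between 1.0 and 5.1 in the Cfp1-/- libraries. The summed level of 10 ES cell markers ran from 31398 to 112107 normalized counts, lower in the treated libraries of both lines, whereas the summed endoderm markers reached at most 108, fibroblast markers 516, mesoderm markers 587 and neural markers 4683. None of these markers is among the long genes, and the part of these cell types in the results was not tested.

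In 2 treated libraries the technical replicates differed beyond sampling noise. The chi-square divided by its degrees of freedom was 9.61 for WT replicate 1 and 42.9 for Cfp1-/- replicate 1, against 0.998 to 1.05 for the other 6. In the second run of treated Cfp1-/- replicate 1, all 11 long genes on chromosome 19 and all 18 on chromosome X had no counts, which lowers their treated Cfp1-/- values. No long gene elsewhere lost its counts. Apart from those genes, the second run also held relatively fewer reads of long genes than the first in both of these libraries: the median log2 ratio of second to first run was 0.10 lower for long than for shorter genes in each (differences of -0.10), whereas in the other 6 libraries this difference lay between -0.02 and 0.01. The part of these runs in each result below was not tested beyond the fits without them. Some results are also given without the second run of treated Cfp1-/- replicate 1. They are the main called counts and medians of each comparison that uses it, and the genes named from chromosomes 19 and X. Medians by replicate number, span class and stratum, and counts by pattern of calls, include that run. No fit left out the second run of treated WT replicate 1 alone.

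All 392 long genes are annotated as protein coding, and all passed the filter on low counts. Their spans ran from 200 kb (Pcbp3) to 3009 kb (Fgfr2) with a median of 279 kb, and 87 spanned 400 kb or more. In 385 of them a single annotated transcript covers at least 200 kb, and in the other 7 the span is the union of shorter transcripts. A median of 2.67% of the span was exon, against 16.2% in the shorter genes of the same mean, with a median of 24 annotated exons against 10. The median exon length was 8466 bases against 3986. Since only reads on exons were counted, the same mean count stands for less RNA per length in a long gene: the median level was 119 normalized counts per kb of exon in long genes and 276 in shorter genes. Exon GC content had a median of 47.5% against 49.3%. A CpG-rich promoter (CpG ratio of at least 0.6 and GC of at least 50% around the start) was found in 76.3% of long and 75.2% of shorter genes. Another listed gene lies inside the span of 60 long genes, 31 of them inside Fgfr2. The long genes held between 2.57% and 3.39% of all counts of a library, the highest share being in treated Cfp1-/- replicate 2.

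In WT ES cells, doxorubicin changed long genes in both directions and with sizes like those of shorter genes. At an adjusted p under 0.05 from edgeR's quasi-likelihood test, 72 of 392 long genes (18.4%) were upregulated and 117 (29.8%) downregulated. Among the 9107 shorter genes these shares were 20.8% and 32.2%, and among all 15758 genes tested, many of them of low level, 26.5% and 21.8%. With a limit of 2.5-fold and a mean of 200 added, the latter met by every long and shorter gene here, 34 long genes rose (8.67%) and 17 fell (4.34%), against 9.08% and 4.62% of shorter genes. Over all tested genes these shares were 5.46% and 2.78%, where genes under the mean stand in the denominator but cannot be counted. The median log2 fold change was -0.15 in long and -0.17 in shorter genes. In RNA from whole cultures, fewer cells that express a gene and less RNA per cell cannot be told apart. The scaling matters for this split: with total counts in place of TMM the median of all tested genes moved up by 0.31, 121 long genes were called higher and 59 lower (30.9% and 15.1%, against 32.1% and 17.1% of shorter genes), and the median of the long genes turned from -0.15 to 0.16.

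In Cfp1-/- ES cells more long genes were upregulated and fewer downregulated, at 100 (25.5%) and 83 (21.2%). Shorter genes stood at 20.2% and 30.6%, and all genes tested at 27.8% and 21.0%. With the limits on fold change and mean, 42 long genes rose (10.7%) and 7 fell (1.79%), against 8.66% and 3.9% of shorter genes, and 5.27% and 2.3% over all tested with the same denominator as before. The median log2 fold change was -0.04 in long and -0.18 in shorter genes. Total count scaling gave 140 long genes higher and 46 lower (35.7% and 11.7%, against 26.4% and 18.9% of shorter genes) and moved the median of the long genes to 0.175. Without treated replicate 2 of this line, 60 were called higher and 47 lower, and the share called higher was 15.3% in long and 15.8% in shorter genes. Without untreated replicate 2, 61 were higher, which is 15.6% against 15.7%, so the larger share of rises among long genes was not seen in either fit. Without untreated replicate 1, 51 were lower (13.0%, against 24.7%). Without the affected run, 101 were higher and 79 lower (25.8% and 20.2%, against 20.4% and 31.5% of shorter genes). The median was then -0.0046 (shorter genes -0.17). No p-value is attached to these comparisons between sets, because genes are not replicates of a treatment.

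The replicates did not give the same picture. The median response of the long genes in WT cells was -0.07 between the libraries of replicate number 1 and -0.24 between those of number 2. For Cfp1-/- cells it was -0.09 and 0.10. The difference of responses, Cfp1-/- minus WT, therefore had a median of 0.00 in replicate number 1 and 0.30 in number 2, with 197 and 304 of the 392 long genes above 0. In shorter genes the corresponding medians were 0.04 and -0.01. A higher response difference in long than in shorter genes was thus seen in 1 replicate number of 2. The response in Cfp1-/- cells itself lay higher in long genes in both numbers. Shorter genes had medians of -0.15 and -0.20 there, beside the -0.09 and 0.10 of long genes. The median response difference over both numbers, 0.15, was no larger than the spread between them. Replicate number 1 includes the affected run, and its medians were not made without that run. With that run left out, the median response difference over both was 0.17 in long and 0.02 in shorter genes.

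By span, the WT response showed no graded trend up to 400 kb. Its median was -0.15 in the 1994 genes under 10 kb, -0.18 in the 4715 genes of 10 to 50 kb, -0.17 in the 1532 of 50 to 100 kb, -0.13 in the 866 of 100 to 200 kb, -0.14 in the 305 of 200 to 400 kb and -0.35 in the 87 of 400 kb and over. In the longest class 13 genes (14.9%) were upregulated and 30 (34.5%) downregulated in WT cells, and 21 (24.1%) and 22 (25.3%) in Cfp1-/- cells. The Cfp1-/- medians of the same classes were -0.23, -0.19, -0.12, -0.05, -0.01 and -0.15. Up to 400 kb they rose with span, also through genes that are not very long. In replicate number 2 the medians of these classes up to 400 kb were -0.31, -0.21, -0.06, 0.02 and 0.12. In number 1 they were -0.13, -0.17, -0.15, -0.11 and -0.07, with no order by span among the shortest classes. In the 305 genes of 200 to 400 kb the replicate numbers gave medians of -0.07 and 0.12 in Cfp1-/- cells, and in the 87 longest genes -0.21 and -0.04. Within the 392 long genes, span and response were nearly unrelated across genes, with a Spearman rank correlation of -0.05 in WT and -0.02 in Cfp1-/- cells.

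**Figure D1:**
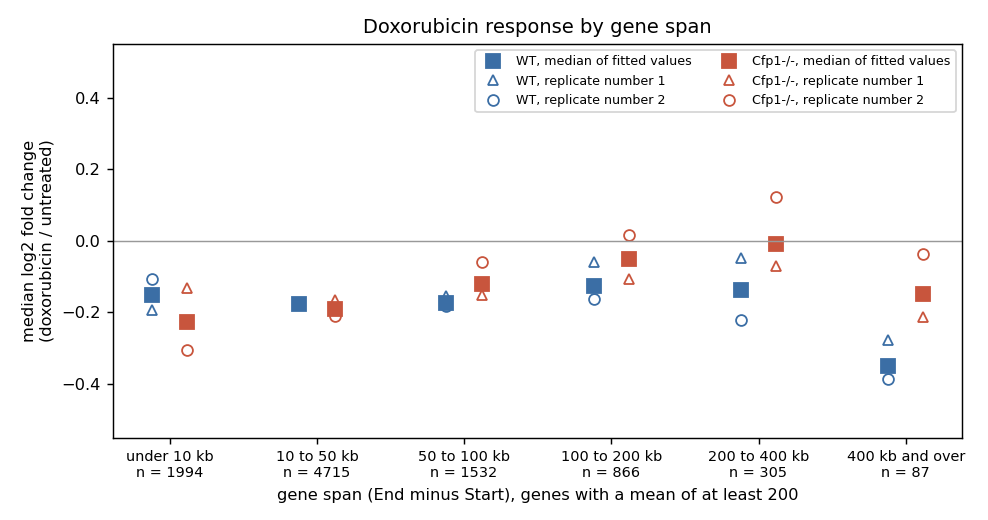
Median log2 fold change (doxorubicin over untreated, y axis) of genes averaging 200 or more normalized counts, in 6 classes of gene span (x axis, number of genes below each). Squares are medians of the fitted values and open symbols the medians within replicate numbers 1 and 2. The 2 classes of long genes, at the right, show the widest distance between replicate numbers. In Cfp1-/- cells that of genes under 10 kb is nearly as wide (-0.13 and -0.31). The 87 genes of 400 kb and over have the lowest WT median, -0.35.

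Level and base composition went with the response in both sets. Across long genes, the response in WT cells had a Spearman rank correlation of -0.22 with counts per kb of exon and 0.27 with exon GC content, and across shorter genes -0.34 and 0.34. Within 5 strata of the mean normalized count (200 to 500, 500 to 1000, 1000 to 2000, 2000 to 5000, and 5000 and over), long genes lay lower than shorter genes in 3 strata in WT cells and higher in 4 in Cfp1-/- cells, with differences weighted over the strata of -0.06 and 0.12. Of the 118 long genes with a mean of 200 to 500, the median response was -0.02 in WT and 0.21 in Cfp1-/- cells, and that of 2393 shorter genes 0.14 and 0.07. The 16 long genes of 5000 and over fell by a median of 0.62 in WT and 0.45 in Cfp1-/- cells, beside 0.51 and 0.38 in 902 shorter genes. When shorter genes were matched instead by counts per kb of exon, the long genes lay lower in all 5 strata in WT cells, with a weighted difference of -0.24, and in 3 of 5 in Cfp1-/- cells, at -0.07. Within 5 strata of exon GC content they lay higher in all 5 strata in both lines, at 0.12 and 0.22. Which shorter genes count as alike thus decided whether the median log2 fold change of long genes lay below or above their peers, in either line. The response difference, Cfp1-/- minus WT, lay higher in long genes in 4 of 5 strata of mean count. It did so in all 5 of counts per kb and of GC content, with weighted differences of 0.17, 0.18 and 0.11. These values join both replicate numbers, whose medians of 0.00 and 0.30 lay apart.

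Taken gene by gene, 60 long genes were upregulated in both lines (15.3%, against 16.7% of shorter genes) and 69 downregulated in both (17.6%, against 24.9%). A further 36 were called higher in Cfp1-/- cells alone (9.18%, against 3.49%) and 44 lower in WT cells alone (11.2%, against 7.28%), but a call in 1 line alone is no test of a difference. Another 12 were called higher in WT cells alone (3.06%, against 4.02%) and 14 lower in Cfp1-/- cells alone (3.57%, against 5.62%). In 153 no change was called in either line (39.0%, against 37.9%). All 129 genes called alike in both lines moved the same way in both replicate numbers of each line. The calls rest on these same libraries, so this is no separate support.

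**Figure D2:**
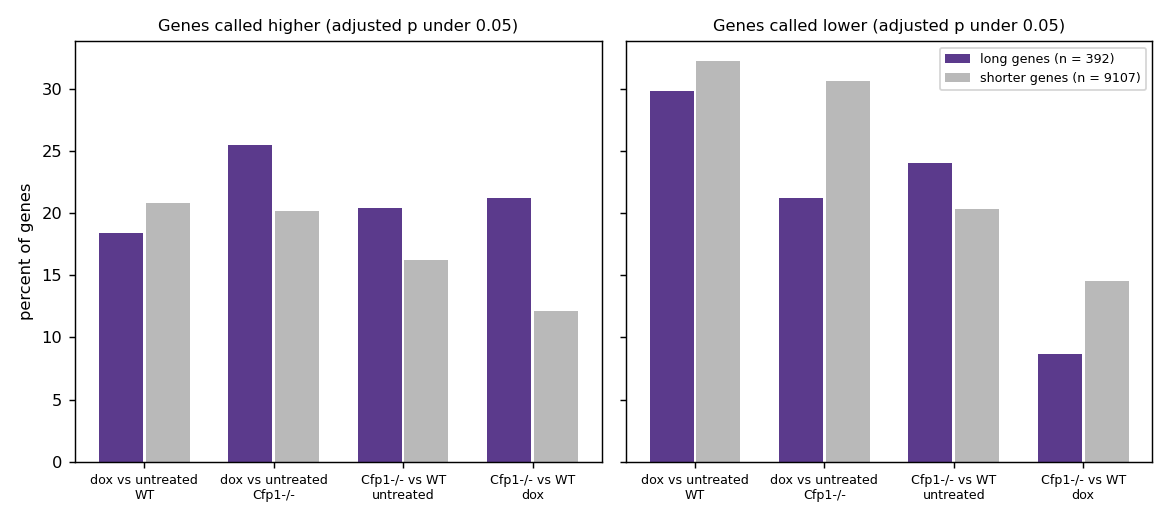
Percent of the 392 long genes (dark bars) and of 9107 shorter genes with a mean of at least 200 (grey bars) called higher (left) or lower (right) at an adjusted p under 0.05 in 4 comparisons. In WT cells the bars of the response lie close together, 18.4% and 20.8% higher, whereas in treated cells 21.2% of long and 12.1% of shorter genes were higher in Cfp1-/- than in WT cells.

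The 12 long genes with the largest rises in both lines encode proteins of various kinds. For 9 of them the mean over the untreated libraries was under 200, so they met the limit on the mean through the libraries in which they were high. With the limit set on the untreated mean instead, 51 of 370 long genes rose in WT cells (13.8%, against 15.5% of shorter genes) and 73 in Cfp1-/- cells (19.7%, against 14.9%). Adamts2 (ENSMUSG00000036545, NCBIM37 chromosome 11, 50415586 to 50621075), a protease that trims procollagen, stood at 11.9 and 22.9 normalized counts in untreated and 438 and 479.5 in treated WT cells. The Cfp1-/- libraries went from 15.8 and 29.6 to 455 and 616. All 4 treated libraries lay far above all 4 untreated ones, with log2 fold changes of 4.78 in WT (SE 0.37, adjusted p = 1.3e-05, edgeR) and 4.59 in Cfp1-/- cells (SE 0.35, adjusted p = 1.42e-05). Anks1b, a scaffold protein of the postsynaptic density whose gene spans 1099 kb, rose from 75.6 and 67.8 to 897 and 811 in WT cells and from 115 and 86.2 to 887 and 1004 in Cfp1-/- cells. Its rise was 3.62 and 3.27 on the log2 scale, so a gene of this span was among the strongest risers. Prdm16, a zinc finger transcription regulator, rose from 175 and 71.9 to 888 and 643 in WT cells and from 205 and 152 to 1113 and 1137 in Cfp1-/- cells.

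Neb, which encodes the giant thin-filament protein nebulin, rose 3.01 on the log2 scale in WT cells, from 463 and 435 to 3308 and 3688. In Cfp1-/- cells it started at 5791 and 5262, above the treated WT level, and reached 20417 and 26995, a rise of 2.14. Syne1, a nuclear envelope spectrin-repeat protein, rose from 311 and 443 to 1644 and 1935 in WT cells and from 999 and 828 to 3747 and 4740.0 in Cfp1-/- cells, by 2.30 and 2.26. The other genes of the leading 12 were Col22a1 (a collagen), Bai3 (an adhesion G protein-coupled receptor), Rap1gap2 (a GTPase-activating protein of Rap1), Stxbp6 (a SNARE-binding protein), Hydin (a protein of motile cilia), Palm2 (a paralemmin) and Ano3 (an anoctamin), with rises of 2.01 to 3.77 in WT and 1.72 to 3.08 in Cfp1-/- cells. For none of these 12 did the response difference between lines pass the threshold, the smallest adjusted p being 0.196, for Neb. With the replicate number as a block, Ano3 was called, at -1.17 (SE 0.23, adjusted p = 0.0290).

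The largest falls in both lines included several transcription regulators. Nfib, a nuclear factor I transcription factor, fell from 796 and 455 to 101 and 27.5 in WT cells and from 1985 and 1234 to 266 and 149 in Cfp1-/- cells, by 3.28 (SE 0.54) and 2.91 (SE 0.50) on the log2 scale. Dlc1, a GTPase-activating protein, fell from 6862 and 4364 to 1252 and 882 and from 6888 and 5504 to 1585 and 1122. In each of these genes every treated library lay below every untreated library of its line. Trps1, a GATA-type zinc finger repressor, fell by 2.03 and 1.77 on the log2 scale, from 4956 and 3409.9 to 1273 and 717 in WT cells and from 3221 and 2746 to 1018 and 678 in Cfp1-/- cells. Phf21a, a subunit of a histone demethylase complex, fell by 2.02 and 1.503. Gphn, which encodes the scaffold protein gephyrin, fell by 1.67 and 1.28.

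The others of the 12 were Mipol1, Sfmbt2, Enox1, Sema3e (a semaphorin), Epb4.1l4a and Dtna (both of the membrane cytoskeleton) and Ppp1r9a (neurabin, an actin-binding regulator of protein phosphatase 1), with falls of 1.35 to 3.11 in WT and 0.88 to 1.80 in Cfp1-/- cells. Some of these calls were lost under another scaling or in fits without 1 library, which leave 1 library in a group. Without treated Cfp1-/- replicate 2, Enox1, Ppp1r9a and Sema3e were not called in Cfp1-/- cells. Sema3e also lost its call without treated Cfp1-/- replicate 1 (0.154) and without untreated Cfp1-/- replicate 1 (0.0736) or 2 (0.154), under total count scaling (0.0988) and with first technical replicates alone (0.06003). Dtna lost it without untreated Cfp1-/- replicate 2 (0.0757) and without treated Cfp1-/- replicate 1 (0.0714). Their directions stayed the same in these fits.

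**Figure D3:**
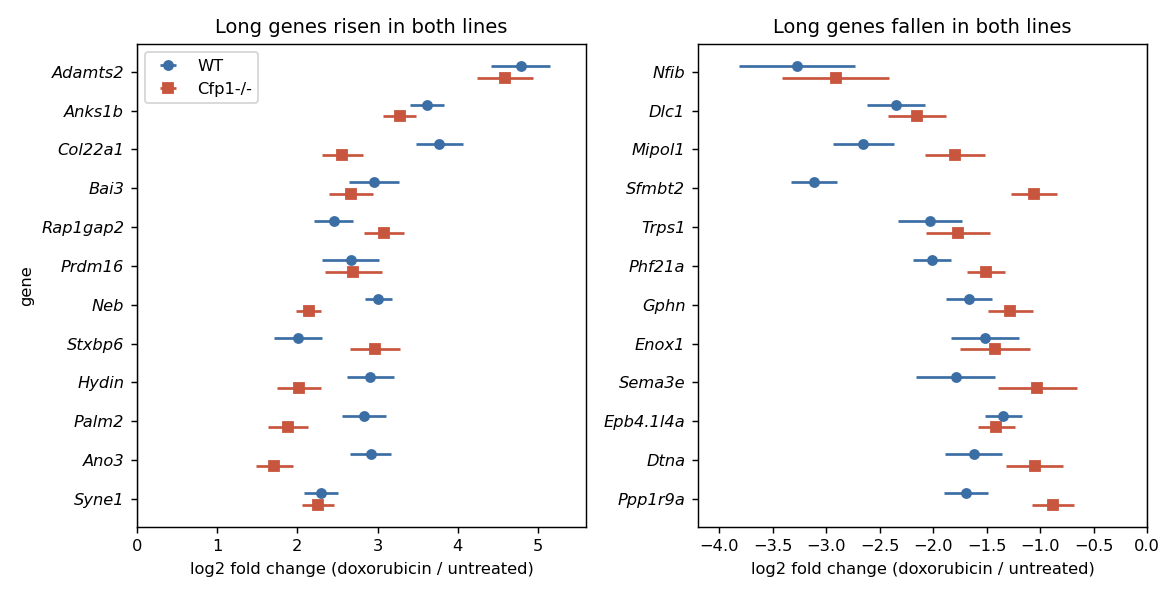
Log2 fold change (doxorubicin over untreated, x axis) of the 12 long genes with the largest mean rise (left) and fall (right) among those called in both lines, with bars of 1 standard error from the edgeR fit, n = 2 a group. Rises reach 4.78 (Adamts2 in WT cells) and falls 3.28 (Nfib in WT cells), and Sfmbt2 shows the widest gap between lines among the falls.

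By role, 149 of the long genes were in at least 1 of 7 functional lists and 243 in none. Of 35 transcription and chromatin regulators, 7 rose and 12 fell in WT cells and 7 and 8 in Cfp1-/- cells, with medians of -0.18 and -0.07. Over all 91 tested genes of that list, short ones included, 12 rose and 36 fell in WT cells. Of 35 cytoskeleton and small GTPase regulators, 10 rose and 7 fell in WT and 13 and 6 in Cfp1-/- cells (medians -0.11 and 0.22). Limch1, an actin-binding activator of myosin II, rose most of these in WT cells, from 127 and 114 to 551 and 637, by 2.35. Rabgap1l, a GTPase-activating protein of Rab, fell most, from 1195 and 1488 to 673 and 725, by 0.89. All 66 tested genes of this list, short ones included, gave 18 rises and 14 falls in WT cells.

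Of 18 adhesion, polarity and guidance genes, 2 rose and 10 fell in WT cells and 2 and 5 in Cfp1-/- cells, with medians of -0.51 and -0.24, the lowest of the 7 lists in both lines. Ptprd, a receptor tyrosine phosphatase of synapses spanning 2271 kb, rose from 116 and 82.4 to 185 and 209 in WT cells (1.03, adjusted p = 0.00541). Sema3e, the steepest fall of the list, went from 1356 and 2881 to 396 and 785. With short genes included, the 60 tested genes of this list gave 10 rises and 19 falls in WT cells. In Cfp1-/- cells they gave 10 and 8, and the medians were -0.33 and -0.06. Of 23 kinases, phosphodiesterases and other signal transducers, 2 rose and 10 fell in WT and 6 and 4 in Cfp1-/- cells. Mast4, a serine/threonine kinase, rose by 1.38 in WT and 1.33 in Cfp1-/- cells, and Plce1, a phospholipase C on chromosome 19, had a WT value of -1.53 (adjusted p = 0.0054). The 84 tested signal transducers, short ones included, were more even, with 21 rises and 22 falls in WT cells. In Cfp1-/- cells they gave 25 and 16, and the medians were 0.02 and 0.15.

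The 22 ubiquitin ligases and trafficking genes gave 2 rises and 4 falls in WT and 5 and 4 in Cfp1-/- cells, from Stxbp6 (2.01 in WT) to Rnf220, a RING ubiquitin ligase (-0.62). The 12 genes of the RNA-binding list gave 0 rises and 4 falls in WT and 2 and 3 in Cfp1-/- cells. Its steepest fall, Ppp1r9a at -1.69, is an actin-binding protein and no RNA-binding protein, and its highest WT value, 0.49 in the splicing regulator Celf4, was not called in WT cells (adjusted p = 0.119). Of 10 common fragile site genes, 1 rose and 5 fell in WT cells, and 3 rose and 4 fell in Cfp1-/- cells (medians -0.16 and 0.31). Large, a glycosyltransferase that acts on dystroglycan, rose from 990.4 and 772 to 1884 and 1328 in WT cells, by 0.91, and Gphn fell most. All 23 tested fragile site genes, short ones included, gave 3 rises and 6 falls in WT and 5 and 4 in Cfp1-/- cells (medians 0.11 and 0.26). In WT cells the 58 tested ubiquitin and trafficking genes gave 10 rises and 15 falls, and the 35 of the RNA-binding list 5 and 13. The shares for all tested genes given above apply to these counts too. Without the affected run, no Cfp1-/- count of long genes in these 7 lists moved by more than 1. The median of the long signal transducers moved from -0.07 to 0.15.

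None of the 8 tested topoisomerase and Tdp genes, whose products relieve twist or remove trapped topoisomerase, is a long gene. Top2a, the topoisomerase II of dividing cells, stood at 64070.4 and 57815 normalized counts in untreated and 26260.1 and 31798 in treated WT cells and fell by 1.02 in WT (adjusted p = 0.000381) and 1.09 in Cfp1-/- cells (0.000282). Top2b, the form that non-dividing cells also use, fell by 0.56 in WT cells (adjusted p = 0.00264) and was at -0.08 in Cfp1-/- cells (0.591), where its untreated level was lower, at 2274 and 2302 against 5696 and 5693. The difference of these responses, 0.48, did not pass the test (adjusted p = 0.311). Of the 8 genes, 1 rose and 3 fell in WT cells and 1 rose and 2 fell in Cfp1-/- cells. The riser was Top1mt, the mitochondrial topoisomerase.

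Among the 5 widest long genes the response differed from gene to gene. Fgfr2, a fibroblast growth factor receptor, stood at 1086 and 1016 in untreated and 731 and 1226 in treated WT cells, so its groups overlapped (-0.06, adjusted p = 0.878). In this annotation Fgfr2 spans 3009 kb and holds 31 other genes, and union counting drops reads that lie on overlapping genes. Ptprd, which rose in WT cells, was at 0.43 in Cfp1-/- cells (adjusted p = 0.132), and the difference did not pass the test (0.564). Dmd, which encodes dystrophin on chromosome X, fell from 2903 and 2721 to 1931 and 1722 in WT cells, by 0.58 (adjusted p = 0.0123), and lost that call under total count scaling (-0.26, adjusted p = 0.204) and without untreated replicate 1 (0.0651) or treated replicate 2 (0.0647). In Cfp1-/- cells its fall of 0.76 includes the run with no counts for chromosome X, and without that run it was 0.47 (adjusted p = 0.0132).

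Pde4d, a cAMP phosphodiesterase of 1504 kb, fell from 827 and 783 to 449 and 253 in WT cells and from 865 and 848 to 352 and 379.8 in Cfp1-/- cells, by 1.15 and 1.18. Arfip1, with 5 other genes inside its span, fell by 0.49 and 0.48, and either call was lost under total count scaling (adjusted p = 0.349 and 0.156) and without some libraries: untreated WT replicate 2 (0.106), treated WT replicate 1 (0.128), untreated Cfp1-/- replicate 2 (0.099) or treated Cfp1-/- replicate 2 (0.122).

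The long genes of highest level per kb of exon in untreated WT cells were Mid1, Adk, Macf1, Chchd3 and Dst. Macf1 and Dst, giant linkers of actin and microtubules, stood between 20812 and 45341 normalized counts in all 8 libraries. Macf1 fell from 42257 and 31891 to 25702 and 20812 in WT cells, by 0.63, and by 0.50 in Cfp1-/- cells, while Dst was at -0.13 and -0.15 with adjusted p of 0.449 and 0.38. The Macf1 calls were lost under total count scaling (0.172 and 0.219), without untreated replicate 1 (0.145) or treated replicate 2 (0.103) of WT cells, and without untreated replicate 1 (0.208), treated replicate 1 (0.0586) or treated replicate 2 (0.216) of Cfp1-/- cells. Mid1, a microtubule-associated ubiquitin ligase gene on chromosome X, was at 11544 and 11542 in untreated and 15341 and 9332 in treated WT cells, which overlap. In Cfp1-/- cells its fall of 0.91 (adjusted p = 0.012) was 0.61 without the affected run and was then not called (0.0541). It lost the call also without untreated replicate 1 (0.087) or treated replicate 1 (0.0827).

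The response differed between lines, by the test of the difference itself, in 5 long genes (1.28%). In 4 it was higher in Cfp1-/- cells (1.02%, against 0.114% of all tested and 0.0988% of shorter genes) and in 1 lower (0.255%, against 0.121% and 0.176%). The genes were Sfmbt2 (a Polycomb group protein), Mctp2 (a membrane protein with C2 domains), Pdzd2 (a protein with PDZ domains), Pitpnc1 (a phosphatidylinositol transfer protein) and Ablim1 (an actin-binding LIM protein). No gene of 400 kb and over was among them. With the replicate number as a block, 11 were higher and 5 lower, and all 5 genes were again called. The 11 others were Pard3, Trio, Palld, Auts2, Psd3, Cachd1 and Dnahc8, higher in Cfp1-/- cells, and Rims1, Ano3, Plekhg1 and Gramd1b, lower. Of all tested genes, 1.54% were called in that fit.

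Because Cfp1 binds CpG, the 200 bases before the listed start of these 5 genes are shown, with each CG in capitals, from the NCBIM37 assembly and on the gene's own strand. They lie at chr19:57389410-57389609 (Ablim1, minus strand), chr7:79451482-79451681 (Mctp2, minus), chr15:12669680-12669879 (Pdzd2, minus), chr11:107332035-107332234 (Pitpnc1, minus) and chr2:10291937-10292136 (Sfmbt2, plus).
Ablim1: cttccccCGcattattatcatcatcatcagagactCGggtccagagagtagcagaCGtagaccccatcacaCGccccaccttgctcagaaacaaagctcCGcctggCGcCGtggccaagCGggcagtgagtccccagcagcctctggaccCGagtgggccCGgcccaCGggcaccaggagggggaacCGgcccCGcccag
Mctp2: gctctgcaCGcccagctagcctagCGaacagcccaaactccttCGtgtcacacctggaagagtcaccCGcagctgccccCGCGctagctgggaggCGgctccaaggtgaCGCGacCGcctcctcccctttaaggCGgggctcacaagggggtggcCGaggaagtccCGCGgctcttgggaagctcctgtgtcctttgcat
Pdzd2: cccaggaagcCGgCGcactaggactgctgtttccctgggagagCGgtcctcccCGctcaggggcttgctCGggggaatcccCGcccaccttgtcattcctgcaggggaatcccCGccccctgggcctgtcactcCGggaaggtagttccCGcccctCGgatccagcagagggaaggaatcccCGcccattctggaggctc
Pitpnc1: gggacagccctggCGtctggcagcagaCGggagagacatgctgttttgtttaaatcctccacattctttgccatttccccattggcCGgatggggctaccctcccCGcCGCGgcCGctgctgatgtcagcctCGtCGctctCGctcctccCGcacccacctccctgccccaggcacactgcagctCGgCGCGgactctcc
Sfmbt2: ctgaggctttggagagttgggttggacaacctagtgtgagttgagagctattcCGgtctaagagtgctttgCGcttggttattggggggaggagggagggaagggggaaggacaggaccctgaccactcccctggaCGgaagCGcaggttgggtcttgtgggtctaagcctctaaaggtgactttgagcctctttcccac
Sfmbt2 had 4 CG in this window and the others 11 to 14. The long genes had a median of 15, shorter genes of 13, and 47 of the 392 long genes and 12.1% of shorter genes had 4 or fewer. At least 1 CG was found in 99.0% of long genes, 98.7% of shorter genes and 90.4% of all genes of the tables. The letters CG read the same on both strands, and their number is a description of the window and not of binding.

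Sfmbt2 (ENSMUSG00000061186, chromosome 2, 10292137 to 10516880) stood at 4698 and 6776 normalized counts in untreated and 579 and 705 in treated WT cells. Cfp1-/- cells already stood at 552 and 450.4 without treatment and went to 251 and 216. Untreated WT cells were the only high group, and both untreated Cfp1-/- libraries lay below the treated WT libraries. Its fall of 3.11 in WT and 1.06 in Cfp1-/- cells differed by 2.05 (SE 0.29, adjusted p = 0.0338, edgeR).

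Ablim1 (ENSMUSG00000025085, chromosome 19, 57107223 to 57389409) rose from 134 and 136 to 1082 and 1202 in WT cells. In Cfp1-/- cells it went from 1429.6 and 1342 to 1575 and 2839. Untreated WT cells were again the group that stood apart, here the low one. The difference of -2.42 (SE 0.34, adjusted p = 0.0338) became -2.16 (SE 0.19, adjusted p = 0.0112) without the run that held none of its counts, and the Cfp1-/- rise of 0.71 became 0.96. That rise itself was not called without treated replicate 2 (0.23, adjusted p = 0.33) or without untreated replicate 1 (0.0864) or 2 (0.125) of Cfp1-/- cells.

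The other 3 genes shared a pattern in which untreated Cfp1-/- cells were the lowest group. Mctp2 (ENSMUSG00000032776) was at 1604 and 1101 in untreated and 933 and 875 in treated WT cells, and at 322 and 322 in untreated and 737 and 883 in treated Cfp1-/- cells. It fell by 0.54 in WT and rose by 1.37 in Cfp1-/- cells, a difference of 1.91 (SE 0.27, adjusted p = 0.0338). The WT fall was not called under total count scaling (-0.22, adjusted p = 0.374). Of the 8 fits that leave out 1 library it was called only in that without untreated WT replicate 2, and without untreated WT replicate 1 it was -0.24 (adjusted p = 0.381).

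Pdzd2 (ENSMUSG00000022197) was at 544 and 576 in untreated and 925 and 675 in treated WT cells. The Cfp1-/- values rose from 137 and 109 to 609.7 and 754. The response was 0.56 in WT and 2.51 in Cfp1-/- cells, a difference of 1.95 (SE 0.30, adjusted p = 0.0469). Its WT rise was not called with DESeq2's size factors (0.0622) or without 6 of the 8 libraries, treated WT replicate 1 among them (0.31, adjusted p = 0.308).

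Pitpnc1 (ENSMUSG00000040430) was at 2232 and 1870.2 in untreated and 2755 and 2435 in treated WT cells, and went from 584 and 537 to 1642 and 2006 in Cfp1-/- cells. The response was 0.38 in WT cells (adjusted p = 0.0619) and 1.74 in Cfp1-/- cells, a difference of 1.36 (SE 0.22, adjusted p = 0.0497). With the replicate block the WT rise was called (0.39, adjusted p = 0.0356). In treated cells Pitpnc1 remained 0.48 lower in Cfp1-/- than in WT cells (adjusted p = 0.0437). The difference's adjusted p lay above 0.05 with DESeq2's size factors in edgeR (0.0504), total count scaling (0.0683), the affected run left out (0.0617) and first technical replicates alone (0.0701). For Pdzd2 it was 0.0526 with total count scaling and 0.058 without the affected run.

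Whichever library was left out, calls of the response difference fell over all tested genes, and most of the calls on these genes were lost. Each such fit leaves 1 library in a group, so a lost call cannot show which libraries carry it. The differences themselves kept their sign. That is no separate support, since the genes were picked by these differences in the same libraries. The ranges were 1.73 to 2.25 for Sfmbt2, 1.56 to 2.12 for Mctp2 and 1.74 to 2.19 for Pdzd2. They were 1.18 to 1.48 for Pitpnc1 and -2.89 to -2.07 for Ablim1.

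**Figure D4:**
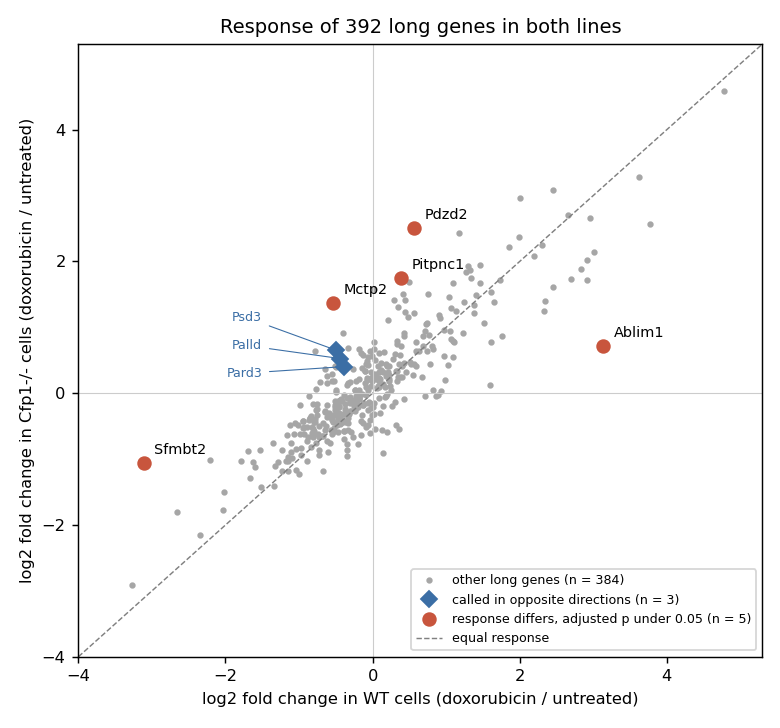
Log2 fold change (doxorubicin over untreated) of the 392 long genes in WT cells (x axis) and Cfp1-/- cells (y axis), each point 1 gene, with the dashed line marking equal responses. Circles mark the 5 genes with a called response difference, of which Ablim1 lies far below the line and Sfmbt2, Mctp2, Pdzd2 and Pitpnc1 above it, and diamonds mark 3 further genes called lower in WT and higher in Cfp1-/- cells.

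No long gene was called higher in WT and lower in Cfp1-/- cells. That pattern was also rare in shorter genes (0.0769%), so its absence here shows little. The reverse, lower in WT and higher in Cfp1-/- cells, was called in 4 long genes (1.02%, against 0.022% of shorter genes). Besides Mctp2 these were Palld (palladin, an actin-bundling protein), Pard3 (a cell polarity scaffold) and Psd3 (an exchange factor of Arf6), named after their values were seen. Pard3 stood at 2397 and 2593 in untreated and 1876 and 1806 in treated WT cells, and at 1528 and 1469.6 in untreated and 1858 and 1993 in treated Cfp1-/- cells. Palld went from 913 and 886 to 679 and 602 in WT cells and from 1144 and 1033 to 1458 and 1588 in Cfp1-/- cells. Psd3 went from 593 and 525 to 401 and 369 and from 346 and 343 to 537 and 514.

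In all 3 the treated and untreated libraries of a line did not overlap, yet the changes were small, from -0.49 to -0.39 in WT and from 0.40 to 0.65 in Cfp1-/- cells. Their response differences of 0.80, 0.97 and 1.15 for Pard3, Palld and Psd3 did not pass the threshold without a block (adjusted p = 0.13, 0.114 and 0.111) and passed it with the replicate block (0.039, 0.02995 and 0.0272). Under total count scaling the WT falls were not called (0.628, 0.473 and 0.391). Each of the 4 WT libraries left out in turn removed the WT call of Pard3, and all but treated replicate 1 that of Palld and all but untreated replicate 2 that of Psd3, with adjusted p from 0.0578 to 0.164. The Cfp1-/- calls were lost without any of 6 libraries for Pard3 and of 2 each for Palld and Psd3, at 0.0511 to 0.109.

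**Figure D5:**
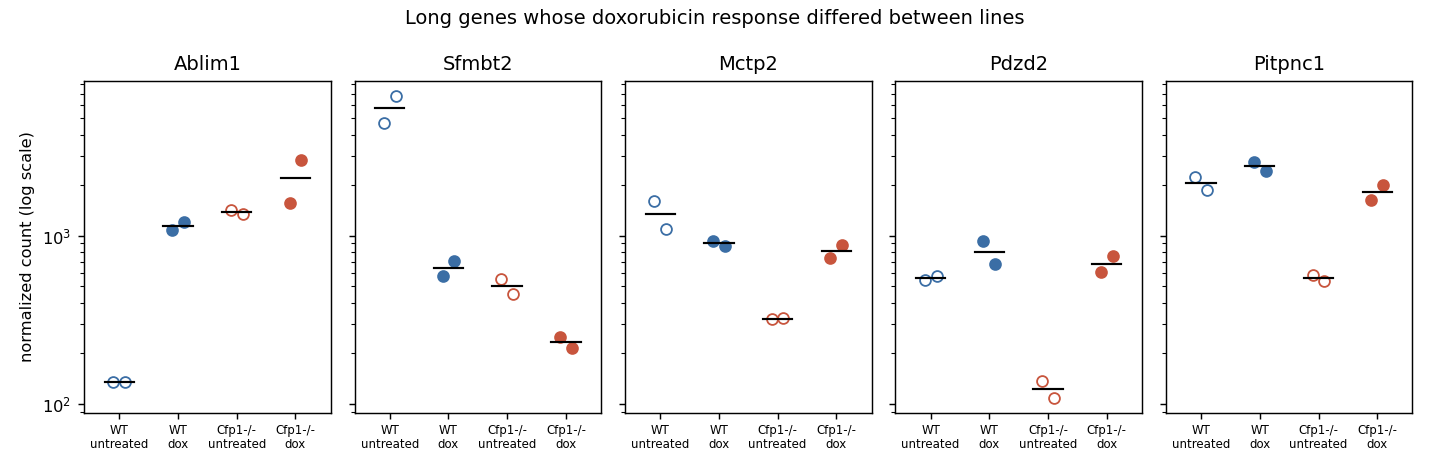
Normalized counts (log axis) of the 5 long genes with a called response difference, in the 2 libraries of each group (points) with the group mean (line), open for untreated and filled for treated cells. Untreated WT cells stand apart for Ablim1 and Sfmbt2, whereas for Mctp2, Pdzd2 and Pitpnc1 untreated Cfp1-/- cells lie below the 3 other groups.

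Without doxorubicin, long genes differed between the lines in both directions. 80 were higher in Cfp1-/- cells (20.4%) and 94 lower (24.0%), against 16.2% and 20.3% of shorter genes and 17.9% and 16.1% of all tested. With the limits of 2.5-fold and a mean of 200, 36 were higher (9.18%) and 22 lower (5.61%), against 3.46% and 2.49% of shorter genes, and 2.23% and 1.58% over all tested, including those under the mean. Total count scaling gave 111 higher and 63 lower (28.3% and 16.1%, against 24.3% and 12.1% of shorter genes). The median difference was -0.03, at 0.04 in replicate number 1 and -0.10 in number 2. Without untreated WT replicate 2, 53 long genes were called lower (13.5%, against 11.6% of shorter genes), without untreated Cfp1-/- replicate 1 also 53 (against 10.6%), and without untreated Cfp1-/- replicate 2, 51 (13.0%, against 13.5%).

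The strongest genotype differences were large. Neb was 3.65 higher on the log2 scale in untreated Cfp1-/- cells (SE 0.17, adjusted p = 4.29e-06). Sdk2, a cell adhesion molecule of synapses, stood at 33.98 and 19.8 in untreated WT and 332 and 333 in untreated Cfp1-/- cells, a difference of 3.63. Lmo7, a LIM domain protein of cell junctions, was at 717 and 620.3 against 2884 and 2802, a difference of 2.12, and Ablim1 differed by 3.39. The 4 lower genes of smallest adjusted p were Sfmbt2 (-3.49), Pitpnc1 (-1.84), Mctp2 (-2.04) and Pdzd2 (-2.16). These 4 are also the genes whose response was higher in Cfp1-/- cells, and both differences use the same untreated libraries.

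Under doxorubicin 83 long genes were higher in Cfp1-/- than in WT cells (21.2%) and 34 lower (8.67%). Shorter genes stood at 12.1% and 14.5%, and all tested genes at 15.1% and 10.8%. With the limits of 2.5-fold and a mean of 200, 22 were higher (5.61%) and 5 lower (1.28%), against 2.21% and 1.84% of shorter genes, and 1.42% and 1.1% over all tested, including those under the mean. Without treated WT replicate 2, 50 were higher (12.8%, against 6.72% of shorter genes). Without treated Cfp1-/- replicate 2, 48 were higher and 21 lower (12.2% and 5.36%, against 6.42% and 6.41%). Without treated Cfp1-/- replicate 1, 16 were lower (4.08%, against 7.64%), and without treated WT replicate 1, 22 (5.61%, against 11.8%). With the replicate block 109 were higher and 52 lower (27.8% and 13.3%, against 17.3% and 21.3% of shorter genes). Without the affected run these were 90 and 36 (23.0% and 9.18%, against 13.3% and 16.3%). The median difference was 0.10 (0.13 without the affected run). It was 0.02 in replicate number 1 and 0.21 in number 2, against -0.04 and -0.07 in shorter genes. Here too the replicate numbers lay apart, with long genes above shorter genes in both. Long genes lay above shorter genes in all 5 strata of mean count, with a weighted difference of 0.16.

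The same genes can be followed from untreated to treated cells, which are separate libraries. Of the 80 long genes higher in untreated Cfp1-/- cells, 65 were also called higher under doxorubicin and 15 were not called. Of the 94 lower ones, 29 were also called lower and 65 were not called. Of 218 genes with no call in untreated cells, 18 were higher and 5 lower under doxorubicin. Lmo7 kept its difference, 1.75 (adjusted p = 8.91e-05), while Mctp2 and Pdzd2 were at -0.13 (0.641) and -0.20 (0.493) in treated cells. A call lost under treatment is no test of a change, which the response difference gives. These counts were not made for shorter genes, so no background stands beside them and they show no trait of long genes.

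The 29 long genes on chromosomes 19 and X need the fit without the affected run. The genes named here from these 29 were chosen after their values were seen. Cask, a scaffold kinase, fell without that run by 0.74 in Cfp1-/- cells (1.03 with it), Pola1, the catalytic subunit of DNA polymerase alpha, by 0.65 (0.93) and Rfx3, a transcription factor of cilia genes, by 0.96 (1.23), all still called. Diap2 (-0.29, adjusted p = 0.226) and Shroom4 (-0.35, adjusted p = 0.0896) were called with the run and not without it. Gria3, an AMPA receptor subunit, and Pak3, a kinase activated by Rac and Cdc42, rose by 1.97 and 2.16 without the run. Without these 29 genes, 95 of 363 long genes were higher and 72 lower in Cfp1-/- cells, 26.2% and 19.8%. Shorter genes, likewise without those of lost counts, stood at 20.8% and 29.5%.

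The thresholds cut through a continuum. Just inside the span limit were Pcbp3 (200.03 kb), 4930402H24Rik (200.2 kb) and Ppp1r12b (201 kb), with WT responses of -0.07, -0.16 and 1.34. Just outside were Morc1 (199.7 kb), Clec16a (199.5 kb) and Bckdhb (199 kb), with -0.71, 1.12 and -0.40. At the limit on the mean, Samd4, Mob3b and Ppm1h were just inside, with WT responses of -2.21, 0.11 and 0.71, and Fam38b, Cntln and Stk39 just outside, with -0.47, 0.35 and -0.81. Of these 12, Ppp1r12b and Clec16a rose and Morc1 and Samd4 fell in WT cells, and the others were not called. With the replicate block, Ppm1h (adjusted p = 0.038) and Stk39 (0.0301) were called as well.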

How the data were processed

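RNA was measured in 16 samples, each assigned to its group and replicate by its own label. The authors deposited raw counts per gene and technical replicate, made with STAR (2.2.1 in the submitters' processing notes, another release in the methods) on mm9 (NCBIM37) and, per the methods, HTSeq-count on Ensembl exons in stranded union mode, which leaves out intronic and ambiguous reads and keeps antisense reads apart. The authors also deposited normalized counts for the 8 biological libraries. Per the methods and the values of both tables, the authors made these signal values by dividing each library's pooled counts by a DESeq size factor before they deposited them. No column was of another series.

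Counts of technical replicates were summed and fitted with edgeR 4.0.16 in R 4.3.3 (filterByExpr, TMM, 1 coefficient per group, glmQLFit and glmQLFTest, Benjamini-Hochberg over the 15758 genes tested, common dispersion 0.0304, prior degrees of freedom 5.62). A call is an adjusted p under 0.05. Exon length, GC content and exon number came from the GENCODE vM1 annotation, in which 22324 of 22375 genes were found, 21985 of them with the same coordinates. Promoter sequence came from the NCBIM37 genome. Values of a replicate number are log2 ratios between its libraries, and no test was run over sets of genes.

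The replicate numbers are shared by all groups, and libraries of 1 number deviated together: the correlation of their deviations from the group means was 0.140 to 0.451 over the 6 pairs of groups. No source states what libraries of 1 number share, and the main fit leaves this pairing out. A fit with the replicate number as a block was run beside it. The block called the response difference in 243 tested genes, against 37 in the main fit. The blocked value is given in the report where it moves a count of calls by over 1.5 times. It is also given where it changes the call of a response described as not called. The lowest total of 14880589 counts sets the precision. No long gene had 3 or fewer counts in any library.

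Named genes were chosen by a rule: the 12 largest rises and falls called in both lines and moving alike in every replicate number, the 5 widest, the 5 of highest level per kb, genes with a called response difference, the 4 lowest adjusted p in each direction of the untreated genotype difference, the 3 on each side of each limit, and the extremes of each list. The members, lists and tests were chosen with earlier results of these data known. Alternatives were DESeq2's size factors, total counts, DESeq2 1.42.0, no filter, the replicate block, the affected run or all second runs left out, each library left out, other span, mean and fold limits, fits on 2 groups, and strata of exon length, GC content and level. The block with the affected run left out, the span of the longest transcript and the set without genes of lost counts were added after seeing the data.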

Additional observations from a re-analysis of the deposited data

Results flagged for a closer look

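The doxorubicin response differed between the lines, by the interaction contrast of edgeR's quasi-likelihood test, in 5 of the 392 long genes. As Cfp1-/- minus WT on the log2 scale, the difference was -2.42 for Ablim1, 2.05 for Sfmbt2, 1.91 for Mctp2, 1.95 for Pdzd2 and 1.36 for Pitpnc1. In each of the 5 both replicate numbers gave the difference the same sign. The genes were picked from these same libraries, so this is no separate support. The values of Ablim1 include the run in which chromosome 19 had no counts. With groups of 2 libraries, no test for a single library far from the others was possible.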

How the results depend on the processing

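None of the 129 called results on named genes reversed its direction. They were picked by their calls in the same libraries, so this is no separate support. Of 511 summary values over the alternatives, 454 moved by less than the replicate spread or 1.5 times. That spread is wide: the response difference had medians of 0.00 and 0.30 in the replicate numbers and 0.15 over both. The count therefore cannot show that the medians hold. Under total count scaling, 3 medians turned from negative to positive, to 0.16 (WT response), 0.175 (Cfp1-/- response) and 0.1637 (untreated genotype difference), and the called shares became 30.9% higher and 15.1% lower in WT, 11.7% lower in Cfp1-/- and 0.51% higher for the response difference. For the response difference, the share called higher was 0.51% without the affected run, 0.592% at spans of at least 300 kb and 2.55% with DESeq2. Genes under the span limit stood at 0.0988%, 0.129% and 0.571%. The share called lower was 1.02% with DESeq2, 0.51% without a filter, and 0.0% at 300 kb and without the genes of lost counts. Here genes under the span limit stood at 0.988%, 0.549%, 0.182% and 0.185%. With the 2.5-fold limit the shares higher and lower were 8.67% and 4.34% (WT), 10.7% and 1.79% (Cfp1-/-), 9.18% and 5.61% (untreated) and 5.61% and 1.28% (treated). Within strata of counts per kb of exon, long minus shorter was -0.2376 (WT) and -0.0673 (Cfp1-/-). Apart from the construction of these alternatives, the cause was not tested.

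With the replicate number as a block, 2.81% of long genes had a higher and 1.28% a lower response difference, and 13.3% were lower in treated Cfp1-/- cells. Shorter genes stood at 0.604%, 1.14% and 21.3%. With the affected run also left out, these were 3.32%, 1.53% and 13.5% of long and 0.999%, 1.72% and 23.1% of shorter genes. Under the block, 89 long genes were called higher and 137 lower in WT cells (22.7% and 34.9%, against 23.5% and 37.8% of shorter genes). In Cfp1-/- cells 119 and 113 were called (30.4% and 28.8%, against 22.7% and 37.0%). For the untreated genotype difference these were 92 and 121 (23.5% and 30.9%, against 20.6% and 26.8%). The block's calls include all those made without it, and it moved no other share of calls by over 1.5 times.

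Leaving out each library in turn gave these ranges. Called higher were 15.3% to 19.9% (WT), 15.3% to 26.0% (Cfp1-/-), 0.0% to 0.255% (response difference), 14.5% to 21.2% (untreated) and 12.2% to 20.9% (treated). Called lower were 22.2% to 29.6%, 12% to 24.2%, 0.0% to 0.255%, 13.0% to 26.0% and 4.08% to 10.5% in the same order. The median of the long genes ran from -0.25 to -0.09 (WT), from -0.09 to 0.07 (Cfp1-/-) and from -0.10 to 0.04 (untreated genotype difference), so that the last 2 changed sign. Of those on named genes, 19 lost their call under total count scaling, and 11 to 24 without a given library. Groups of 2 libraries, with a common dispersion of 0.0304, limit the precision of every value.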
